A study of Mus musculus with 10 samples.

Results

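The 41 genes described here are antiviral genes that type I interferon induces. They were taken as a list of mouse gene symbols and found through their Ensembl identifiers in a table of raw RNA-seq counts. All 41 matched among the 55359 genes of the table, and 40 of them passed the filter on low counts. Oas1g, an oligoadenylate synthetase, had no count in any of the 10 libraries. This allows up to 0.0959 CPM in the library with the fewest counts (3 counts over its raw total, counting error only). The CPM given below also carry a scaling factor of 0.955 to 1.03 for each library, which this limit does not. CPM is a gene's count scaled to the size of its library. The cells were lymphocytes from the spleen of pmel-1 mice, whose transgenic T cell receptor recognises the melanocyte antigen gp100 and is carried by CD8 T cells. Spleen cells were activated for 48 h with the human gp100 peptide and kept for a further 48 h in human IL-2. Cells were then electroporated with mRNA, and RNA was taken after another 24 h.

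Each of 5 groups had 2 libraries. The mixture group received mRNAs for scIL-12, a single-chain IL-12, and for DRIL18, an IL-18 variant that resists its decoy receptor. The IL12 group received the scIL-12 mRNA and the DRIL18 group the DRIL18 mRNA. Mock cells are labelled as electroporated with mRNA, but no source used here says which mRNA they received. NoEp cells were not electroporated and carry the label WT for genotype and treatment. All groups share the pmel-1 receptor, the peptide activation and the culture in IL-2. The 2 libraries of a group are labelled as biological replicates, but no label says that they come from separate animals or cultures. The p-values below therefore measure the spread between these libraries, which may be technical. Each library was made from a whole culture, so fewer cells of a type and less RNA per cell cannot be told apart in any value below.

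Type I interferons bind a receptor of the chains IFNAR1 and IFNAR2 and act through the kinases JAK1 and TYK2. Their signal forms a complex, ISGF3, which holds STAT2 and IRF9 and binds a DNA motif called the interferon-stimulated response element (ISRE). The genes it induces block virus entry, sense or degrade viral RNA and stop its translation. Many of them keep a basal level in unstimulated cells. Interferon gamma, made by T cells after IL-12 and IL-18, uses another receptor and acts mainly through a motif called GAS. Some antiviral genes respond to both kinds of interferon.

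The promoters of 7 of the genes are shown because ISGF3 acts through the ISRE, and because the values of these genes are followed through the groups below. Each line holds the 160 bases before the annotated transcription start, on the strand of the gene, from the RefSeq annotation of GRCm38.p6. For Ifit3, Oas1a and Bst2, the bases just after that start were not found as an unbroken run in a GENCODE transcript of the gene. The start of these genes is therefore less certain. Capitals mark each match of the ISRE core, which is GAAA, any 2 bases and GAAA, or of its reverse complement, which is TTTC, any 2 bases and TTTC, and matches that overlap run together. Ifit1 lies at chr19:34640729-34640888 on the plus strand, Ifit3 at chr19:34583369-34583528 on the plus strand and Ddx60 at chr8:61927927-61928086 on the plus strand. On the minus strand, Rsad2 lies at chr12:26456453-26456612, Oas1a at chr5:120907526-120907685, Isg15 at chr4:156200819-156200978 and Bst2 at chr8:71537473-71537632.
Ifit1: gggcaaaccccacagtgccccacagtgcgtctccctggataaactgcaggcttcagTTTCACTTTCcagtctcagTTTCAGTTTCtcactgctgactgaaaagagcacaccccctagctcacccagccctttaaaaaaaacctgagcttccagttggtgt
Ifit3: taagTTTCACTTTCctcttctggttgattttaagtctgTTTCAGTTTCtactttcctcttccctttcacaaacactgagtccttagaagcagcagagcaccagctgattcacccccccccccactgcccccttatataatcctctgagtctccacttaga
Ddx60: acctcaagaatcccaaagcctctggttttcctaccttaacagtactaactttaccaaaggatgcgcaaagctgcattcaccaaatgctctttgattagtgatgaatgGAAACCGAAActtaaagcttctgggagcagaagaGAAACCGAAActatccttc
Rsad2: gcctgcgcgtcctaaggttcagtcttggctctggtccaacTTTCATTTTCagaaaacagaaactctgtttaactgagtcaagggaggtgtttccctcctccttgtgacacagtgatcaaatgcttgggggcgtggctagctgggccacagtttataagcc
Oas1a: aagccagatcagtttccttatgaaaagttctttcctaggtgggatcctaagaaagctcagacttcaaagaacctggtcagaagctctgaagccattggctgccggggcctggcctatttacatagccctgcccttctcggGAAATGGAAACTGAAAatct
Isg15: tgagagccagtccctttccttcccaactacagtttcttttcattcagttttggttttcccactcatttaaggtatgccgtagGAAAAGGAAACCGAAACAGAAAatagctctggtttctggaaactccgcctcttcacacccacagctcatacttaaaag
Bst2: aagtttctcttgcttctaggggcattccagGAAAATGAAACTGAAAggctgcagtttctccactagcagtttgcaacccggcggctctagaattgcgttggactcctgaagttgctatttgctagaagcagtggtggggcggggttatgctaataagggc

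A promoter sequence, running from 250 bases before the start to 50 bases after it, was found for 31 of the 41 genes. The ISRE core stood on either strand in 17 of these 31 promoters, or 54.8%, against 1079 of 27025 genes with a promoter in the table, or 4.0%. The GAS motif TTCNNNGAA stood in 7 of the 31, or 22.6%, against 2582 of all genes, or 9.6%. The GAS motif is its own reverse complement, so a match counts for both strands. It overlapped an ISRE match by 3 bases in the promoters of Bst2 and Ifitm3. A match is a description of the letters and is no sign of binding. Isg15 carries 3 overlapping ISRE matches, and Ifit1, Ifit3, Ddx60, Oas1a and Bst2 carry 2 each in the stretch shown.

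The libraries held 31281944 to 35062545 counts, and 20326 to 21358 genes had at least 1 count. Differences were tested with edgeR's quasi-likelihood test in 1 fit over all 10 libraries, with Benjamini-Hochberg adjustment over the 15777 genes tested, and a gene was called at an adjusted p under 0.05. All 8 listed T cell markers, among them Cd3e and Cd8a, were detected, and their summed level was 2906 to 2927 CPM with the mixture, 3505 to 3611 CPM with IL12, 3880.3 to 3900.3 CPM with DRIL18, 4096 to 4139 CPM in Mock and 4239 to 4376 CPM in NoEp. All 8 were called lower with the mixture than in Mock, where 31.9% of all tested genes were. Their median log2 fold change was -0.60. The 5 B cell markers summed to 14.6 to 25.6 CPM and the 7 macrophage markers to 6.08 to 8.54 CPM over all libraries. With the mixture, 3 B cell markers were called higher than in Mock and 1 lower. Only 3 of the 7 macrophage markers were tested, and 1 was called higher and 2 lower with the mixture. Over all tested genes, 32% were higher and 31.9% lower. The 5 dendritic cell markers summed to 10.3 to 10.6 CPM with the mixture, 21.8 to 23.0 CPM with IL12, 5.24 to 5.74 CPM with DRIL18 and 8.83 to 9.31 CPM in Mock. Of these 5, 3 were tested, and they did not move together. With the mixture, 2 were called higher than in Mock and 1 lower. With IL12, 1 was called higher and 1 lower, where 23% and 23.6% of all tested genes were. With DRIL18, 0 were called higher and 2 lower, where 12.2% and 12.1% of all tested genes were. The 4 plasmacytoid dendritic cell markers summed to 9.89 to 10.4 CPM with the mixture, 3.69 to 4.28 CPM with IL12, 8.46 to 9.49 CPM with DRIL18, 5.77 to 6.75 CPM in Mock and 7.07 to 7.25 CPM in NoEp. Of these 4, Tcf4 and Ly6d were tested and were called higher than in Mock with the mixture and with DRIL18. Over all tested genes, 32% and 12.2% were higher in these comparisons. Tcf4 was called lower with IL12, where 23.6% of all tested genes were lower. Siglech, the defining marker of the 4, had no count in any library. The part of cell composition in the differences below was not tested.

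Much of the antiviral list was lower with the mixture and with IL12 than in Mock, and more than 1 in 2 of its genes were higher with DRIL18, by small amounts. With the mixture, 27 of the 40 genes were called lower than in Mock and 5 higher, where 63.9% of all tested genes were called in either direction, 31.9% lower and 32% higher. At a change of at least 2-fold, 14 genes were lower and 3 higher, against 10.7% and 9.13% of all genes. The median log2 fold change of the 40 genes was -0.72, beside -0.00 over all tested genes. With IL12, 22 genes were lower than in Mock and 7 higher, where 46.6% of all genes were called, 23.6% lower and 23% higher, and the median was -0.38 beside -0.01 over all genes. With DRIL18, 23 genes were higher than in Mock and 1 was lower, where 24.3% of all genes were called, 12.2% higher and 12.1% lower, and the median was 0.29 beside 0.00. Of these 24 calls, 1 was higher by at least 2-fold, as were 1.43% of all genes. The 3 comparisons share the Mock libraries, so their errors are linked. Both mixture columns and neither Mock column carry the mark bis in their names, which no source used here explains. By the mixture and Mock groups alone, this mark cannot be told apart from the mixture. Leaving out Mock replicate 2 reduced the 24 calls with DRIL18 to 16.

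**Figure D1:**
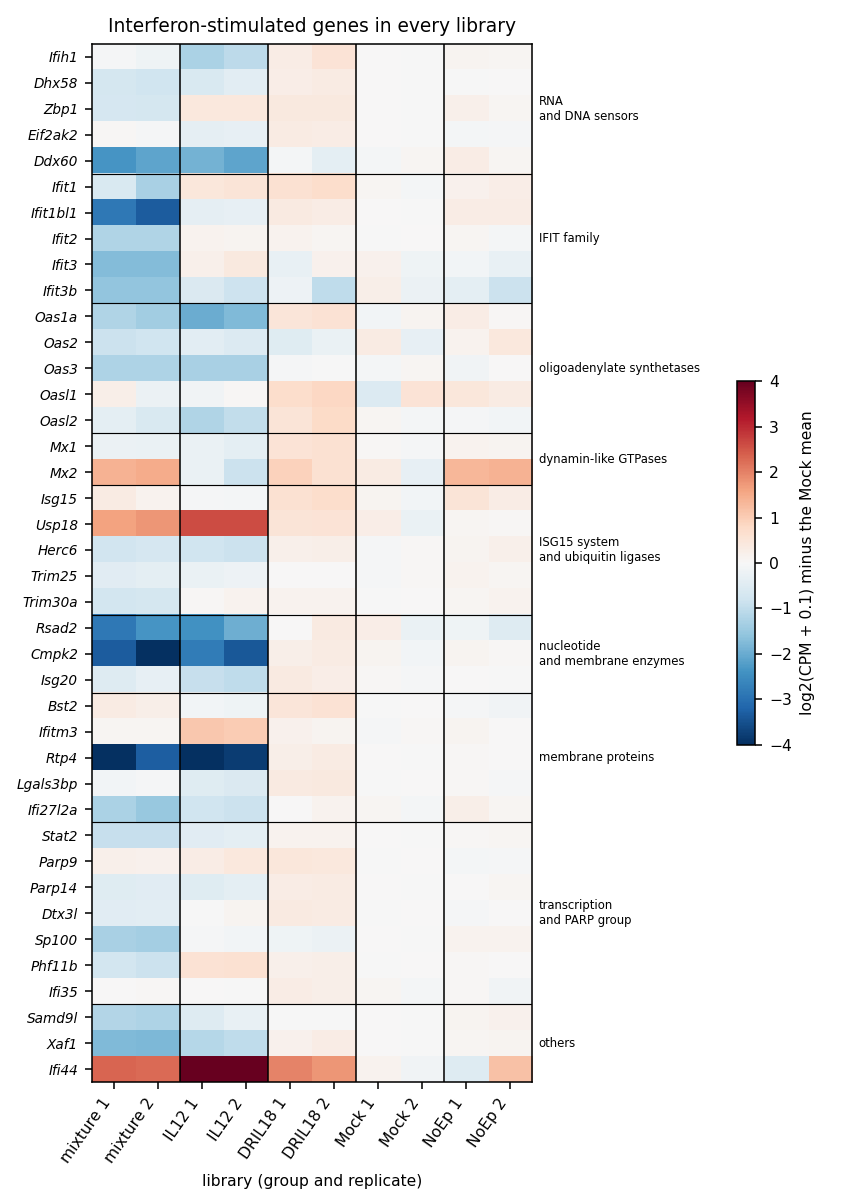
Level of the 40 tested genes (rows, grouped by role) in each of the 10 libraries (columns), as log2(CPM + 0.1) minus the mean of the 2 Mock libraries; blue is below Mock and red above it, and colours stop at -4 and 4. The blue rows in the mixture columns include the IFIT family, and Ddx60, Rsad2, Cmpk2 and Rtp4 are blue in both the mixture and IL12 columns.

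The 3 groups that received cytokine mRNA were also compared with each other. The mixture was lower than DRIL18 at 34 of the 40 genes and higher at 1, where 57.3% of all genes were called, 28.3% higher and 29% lower, with a median log2 fold change of -0.99. IL12 was lower than DRIL18 at 26 genes and higher at 5, where 39.5% of all genes were called, 18.9% higher and 20.6% lower, with a median of -0.67. The mixture was lower than IL12 at 20 genes and higher at 6, where 52.2% of all genes were called, 25.8% higher and 26.3% lower, with a median of -0.31. Summed over the 41 genes, the level was 1552 and 1564 CPM with the mixture, 2210.5 and 2259 CPM with IL12, 2751 and 2757 CPM with DRIL18, 2465 and 2475 CPM in Mock, and 2586 and 2588 CPM in NoEp. The 2 libraries of each group lay close together, and no group overlapped another in this sum. The sum is weighted toward abundant genes such as Sp100 and Samd9l, and genes at low CPM add little to it. Such separation was not particular to the list, since the T cell marker sums given above did not overlap between groups either.

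**Figure D2:**
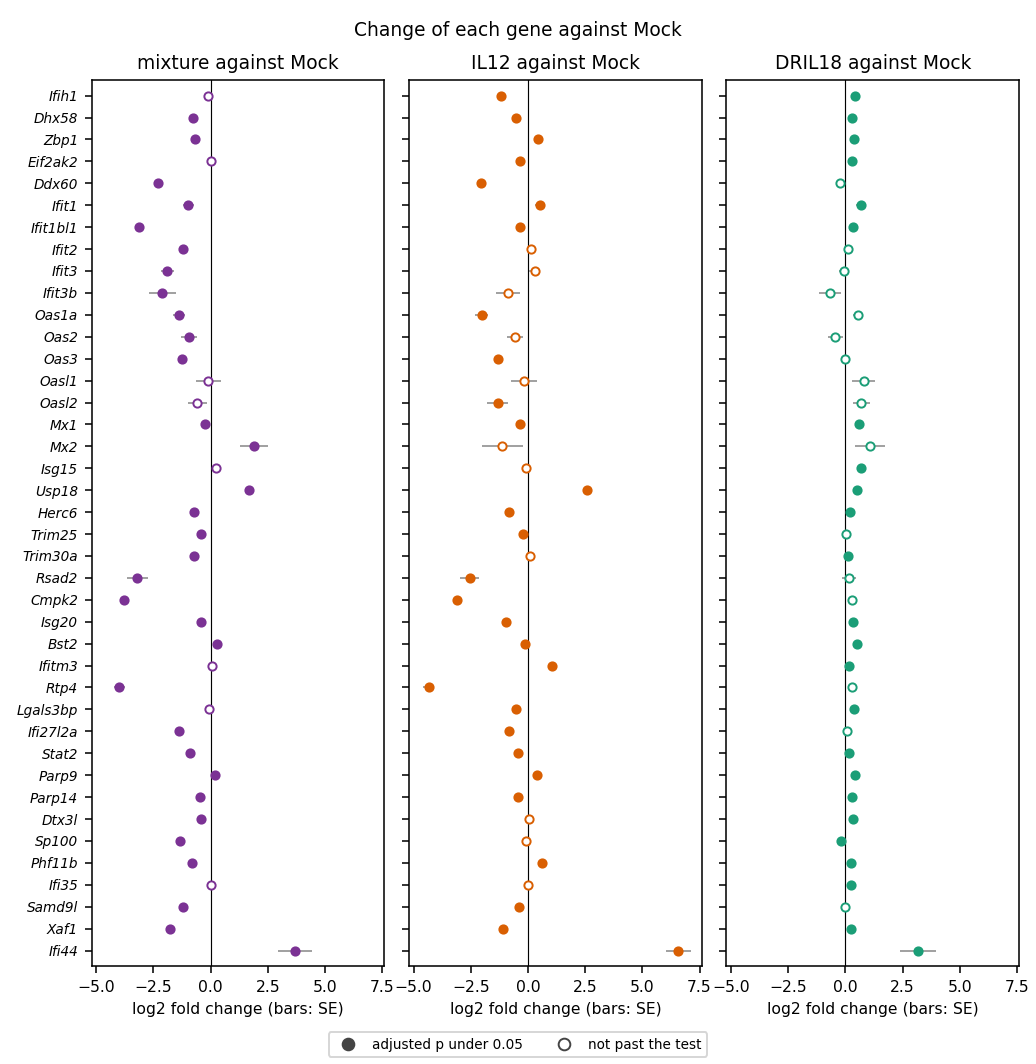
Log2 fold change of each gene with the mixture, IL12 and DRIL18 against Mock, from the fit over all libraries, with bars of 1 standard error; filled points passed the test at an adjusted p under 0.05. Rtp4, Cmpk2, Rsad2 and Ddx60 lie below -2 in the mixture and IL12 panels, while most filled points of the DRIL18 panel lie between 0 and 1.

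Ifih1 encodes MDA5, a cytoplasmic sensor of long double-stranded RNA, and stood at 13.4 and 12.4 CPM with the mixture, 5.75 and 6.63 CPM with IL12, 17.1 and 20.3 CPM with DRIL18, and 14.2 and 13.7 CPM in Mock. It was therefore lowest with IL12 alone (log2 fold change against Mock -1.17 ± 0.11, SE, adjusted p = 2.51e-10) and highest with DRIL18 (0.42 ± 0.09, adjusted p = 0.000995), a rise that did not pass without DRIL18 replicate 2 (0.29, adjusted p = 0.075). The mixture did not differ from Mock beyond the spread (-0.11 ± 0.10, adjusted p = 0.333). It lay above IL12 by 1.06 ± 0.11 (adjusted p = 1.65e-09). Dhx58 encodes LGP2, a regulator of MDA5 and RIG-I, and stood at 13.4 and 12.6 CPM with the mixture, 14.2 and 16.2 CPM with IL12, 26.4 and 27.4 CPM with DRIL18, and 22.3 and 21.6 CPM in Mock. The mixture and IL12 libraries all lay below Mock, by 0.75 and 0.53 on the log2 scale, and the DRIL18 libraries lay above it by 0.30.

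Ddx60, a helicase linked to antiviral sensing, had 1.69 and 2.02 CPM with the mixture, 2.35 and 2.01 CPM with IL12, 8.51 and 6.83 CPM with DRIL18, and 8.66 and 9.51 CPM in Mock. It fell with the mixture (-2.29 ± 0.16, adjusted p = 1.19e-13) and with IL12 (-2.06 ± 0.16, adjusted p = 3.68e-12), and the mixture and IL12 were not told apart (adjusted p = 0.365). Eif2ak2 encodes PKR, the kinase that stops translation when it binds double-stranded RNA. Its level was 50.9 and 47.4 CPM with the mixture, 38.1 and 38.8 CPM with IL12, 61.6 and 60.2 CPM with DRIL18, and 49.5 and 48.6 CPM in Mock. PKR mRNA fell with IL12 (-0.35 ± 0.06) and rose with DRIL18 (0.31 ± 0.05), while the mixture overlapped Mock. Zbp1, a sensor of Z-form nucleic acids that can trigger cell death, stood at 55.3 and 54.2 CPM with the mixture, 117 and 117 CPM with IL12, 115 and 115 CPM with DRIL18, and 89.2 and 85.7 CPM in Mock. Each single mRNA raised Zbp1, by 0.42 and 0.39 on the log2 scale, and the mixture lowered it (-0.68 ± 0.05, adjusted p = 8.71e-14).

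The IFIT proteins bind viral RNA and block its translation. All 5 listed IFIT genes were called lower with the mixture than in Mock. So were 27 of the 40 tested genes of the list and 31.9% of all tested genes. Ifit1, whose promoter is shown above, stood at 1.55 and 0.919 CPM with the mixture, 3.40 and 3.55 CPM with IL12, 3.72 and 4.04 CPM with DRIL18, and 2.57 and 2.29 CPM in Mock. It fell with the mixture (-0.98 ± 0.24, adjusted p = 0.000646), while it rose with IL12 (0.51 ± 0.21, adjusted p = 0.0423) and with DRIL18 (0.67 ± 0.20, adjusted p = 0.0138). The rise with IL12 did not pass without any 1 of the IL12 or Mock libraries (0.44 to 0.60, adjusted p from 0.0716 to 0.184), and the rise with DRIL18 did not pass without DRIL18 replicate 2 (0.61, adjusted p = 0.097) or Mock replicate 2 (0.59, adjusted p = 0.115). Ifit3 had 0.642 and 0.652 CPM with the mixture, 2.78 and 3.14 CPM with IL12, 1.93 and 2.71 CPM with DRIL18, and 2.72 and 2.11 CPM in Mock. Its fall with the mixture was -1.90 ± 0.28 (adjusted p = 6.92e-07), and with IL12 the difference of 0.29 ± 0.23 did not pass (adjusted p = 0.312). The fall of Ifit3b with the mixture (-2.12 ± 0.59, adjusted p = 0.00233) did not pass with the mark bis of the column names as a covariate (-1.43, adjusted p = 0.146). Reads of Ifit3 and of its near-identical neighbour Ifit3b, which was at or below 0.764 CPM in all libraries, may have been split between them.

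Ifit1bl1 showed the widest gap of the family. It stood at 3.76 and 2.73 CPM with the mixture, 21.7 and 22.2 CPM with IL12, 35.9 and 34.6 CPM with DRIL18, and 28.4 and 27.9 CPM in Mock. The mixture was 8.66-fold lower than Mock (log2 fold change -3.11 ± 0.10, adjusted p = 3.66e-22), while IL12 fell by 0.36 and DRIL18 rose by 0.32. Ifit2 had 16.1 and 16.0 CPM with the mixture, 41.3 and 39.8 CPM with IL12, 40.8 and 39.6 CPM with DRIL18, and 37.1 and 37.3 CPM in Mock. Only the mixture passed the test for Ifit2 among the 3 comparisons with Mock (-1.21 ± 0.07), and it was lower than IL12 by 1.33 and lower than DRIL18 by 1.32 on the log2 scale, both past the test. With IL12 against Mock the value was 0.12 ± 0.06 (adjusted p = 0.106).

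The oligoadenylate synthetases make 2-5A, the messenger that activates RNase L. Oas1a stood at 0.963 and 0.830 CPM with the mixture, 0.522 and 0.629 CPM with IL12, 3.37 and 3.59 CPM with DRIL18, and 2.21 and 2.53 CPM in Mock. It fell with the mixture (-1.40 ± 0.26, adjusted p = 2.01e-05) and with IL12 (-2.03 ± 0.28, adjusted p = 5.07e-07), and the difference with DRIL18 did not pass (0.56 ± 0.21, adjusted p = 0.0567). Oas3 had 61.0 and 60.1 CPM with the mixture, 57.4 and 57.5 CPM with IL12, 139 and 140.3 CPM with DRIL18, and 136 and 149 CPM in Mock. Its level with the mixture and with IL12 was less than 1 in 2 of that in Mock (-1.24 ± 0.05 and -1.31 ± 0.05), and the DRIL18 libraries lay within the Mock range. Oas2 had 0.642 and 0.682 CPM with the mixture, 0.914 and 0.818 CPM with IL12, 0.865 and 1.03 CPM with DRIL18, and 1.58 and 0.981 CPM in Mock. The 2 Mock libraries differed widely. The fall of Oas2 with the mixture (-0.95 ± 0.35, adjusted p = 0.0169) was not called with the mark bis as a covariate (-1.01, adjusted p = 0.0908). Nor was it called when Mock replicate 1 (-0.57), mixture replicate 1 (-0.91) or mixture replicate 2 (-0.9999) was left out.

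Oasl2, an oligoadenylate synthetase-like protein, had 0.525 and 0.445 CPM with the mixture, 0.261 and 0.314 CPM with IL12, 1.07 and 1.30 CPM with DRIL18, and 0.764 and 0.684 CPM in Mock. It fell with IL12 (-1.32 ± 0.45, adjusted p = 0.0176), a call that was lost without IL12 replicate 1 (-1.19, adjusted p = 0.0984) or Mock replicate 1 (-1.24, adjusted p = 0.0796). Its difference with DRIL18 was 0.70 ± 0.36 (adjusted p = 0.177). Oasl1, which restrains IRF7 translation in mice, stood at 0.409 and 0.267 CPM with the mixture, 0.294 and 0.346 CPM with IL12, 0.606 and 0.678 CPM with DRIL18, and 0.198 and 0.535 CPM in Mock, and passed no test. The Mx proteins are dynamin-like GTPases that trap viral nucleocapsids. Mx1 had 12.3 and 11.9 CPM with the mixture, 11.9 and 11.0 CPM with IL12, 21.2 and 22.2 CPM with DRIL18, and 14.8 and 13.9 CPM in Mock. The rise of Mx1 with DRIL18 (0.59 ± 0.08, adjusted p = 2.09e-06) exceeded its falls with the mixture (-0.25 ± 0.09) and with IL12 (-0.33 ± 0.09) in size. The fall with the mixture was not called with the mark bis as a covariate (-0.24, adjusted p = 0.115). Nor was that fall called with the DESeq2 Wald test (-0.24, adjusted p = 0.0549), or with Mock replicate 1 (-0.21) or mixture replicate 2 (-0.22) left out. The fall with IL12 was not called without IL12 replicate 2 (-0.27). Mx2 was near the limit of detection, with 0.525 and 0.563 CPM with the mixture, 0.0980 and 0.0314 CPM with IL12, 0.346 and 0.265 CPM with DRIL18, and 0.198 and 0.0892 CPM in Mock. Its rise with the mixture (1.88 ± 0.60, adjusted p = 0.00755) was not called with Mock replicate 2 left out (1.45). The NoEp libraries of Mx2, given further below, lay near its mixture libraries, and these groups were not compared by a test.

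The ISG15 system attaches the ubiquitin-like protein ISG15 to other proteins and removes it. Isg15 itself stood at 3.68 and 3.20 CPM with the mixture, 2.81 and 2.74 CPM with IL12, 4.53 and 4.83 CPM with DRIL18, and 3.11 and 2.71 CPM in Mock. IL12 was lower than DRIL18 (-0.75 ± 0.18, adjusted p = 0.000926), and so was the mixture (-0.44 ± 0.17, adjusted p = 0.0267), but the call for the mixture was lost without DRIL18 replicate 1, DRIL18 replicate 2 or mixture replicate 2 (-0.35 to -0.49, adjusted p from 0.0532 to 0.182). Usp18, the protease that removes ISG15 and also blocks signalling at IFNAR2, moved the other way from most of the list with IL12. It had 17.6 and 19.8 CPM with the mixture, 35.3 and 35.1 CPM with IL12, 8.22 and 8.37 CPM with DRIL18, and 6.93 and 4.70 CPM in Mock. IL12 was 6.03-fold above Mock (2.59 ± 0.11, adjusted p = 9.31e-19) and the mixture 3.20-fold (1.68 ± 0.12, adjusted p = 4.76e-14). The smaller rise with DRIL18 (0.51 ± 0.13) was not called with Mock replicate 2 left out (0.26, adjusted p = 0.2). Herc6, the ligase that attaches ISG15 in mice, stood at 16.0 and 16.8 CPM with the mixture, 15.6 and 14.9 CPM with IL12, 31.3 and 31.9 CPM with DRIL18, and 26.0 and 28.1 CPM in Mock. The 4 libraries with the IL12 mRNA thus lay below Mock and the 2 with DRIL18 alone lay above it. The rise of Herc6 with DRIL18 was not called without DRIL18 replicate 1 (0.24), DRIL18 replicate 2 (0.21) or Mock replicate 1 (0.17). In a mouse annotation of another build, 13.7% of the exonic bases of Herc6 overlap a second gene on the same strand.

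Among the ubiquitin ligases, Trim25, which ubiquitinates RIG-I, fell with the mixture by 0.43 and with IL12 by 0.23 on the log2 scale. Trim30a, a negative regulator of innate signalling, fell with the mixture (-0.73 ± 0.04), while its difference with IL12 did not pass (adjusted p = 0.0545). Its rise with DRIL18 was 0.13 ± 0.04 (adjusted p = 0.0132), and did not pass without any 1 of the DRIL18 or Mock libraries (adjusted p from 0.0627 to 0.11).

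The strongest falls of the list lay among the enzymes and in Rtp4. Rsad2 encodes viperin, which makes a chain-terminating nucleotide, and Cmpk2, its neighbour in the genome, encodes a nucleotide kinase. Rsad2 stood at 0.117 and 0.207 CPM with the mixture, 0.196 and 0.314 CPM with IL12, 1.50 and 1.91 CPM with DRIL18, and 1.81 and 1.22 CPM in Mock. Cmpk2 had 1.60 and 0.860 CPM with the mixture, 2.38 and 1.54 CPM with IL12, 19.9 and 21.6 CPM with DRIL18, and 18.3 and 15.8 CPM in Mock. Rtp4, a chaperone that carries receptors to the cell surface, had 0.292 and 0.741 CPM with the mixture, 0.294 and 0.503 CPM with IL12, 9.63 and 10.3 CPM with DRIL18, and 8.29 and 8.15 CPM in Mock. For all 3 genes the mixture and IL12 libraries lay far below Mock, with no overlap. Rtp4 was 15.9-fold lower with the mixture and 20.3-fold lower with IL12, Cmpk2 was 13.8-fold and 8.71-fold lower, and Rsad2 was 9.19-fold and 5.86-fold lower. With DRIL18, neither Rtp4 (0.28 ± 0.14, adjusted p = 0.155) nor Cmpk2 (0.28 ± 0.11, adjusted p = 0.0558) passed the test. The difference between the mixture and IL12 passed for Cmpk2 (-0.66 ± 0.25, adjusted p = 0.0262). It did not pass with the DESeq2 Wald test (adjusted p = 0.0567), limma-voom (adjusted p = 0.0823) or edgeR on only these groups (adjusted p = 0.103). The call was also lost without IL12 replicate 1 (-0.32) or mixture replicate 2 (-0.29). In a mouse annotation of another build, 13.9% of the exonic bases of Rtp4 overlap a second gene on the same strand.

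Isg20, an exonuclease that degrades single-stranded RNA, stood at 19.4 and 21.9 CPM with the mixture, 14.8 and 13.8 CPM with IL12, 36.1 and 33.6 CPM with DRIL18, and 29.0 and 26.7 CPM in Mock. All 4 groups were separate, and the mixture lay between IL12 and Mock (0.53 ± 0.08 above IL12, adjusted p = 2.41e-06). The membrane proteins behaved unlike each other. Bst2, or tetherin, which holds budding virus at the cell surface, had 70.2 and 65.3 CPM with the mixture, 51.2 and 49.6 CPM with IL12, 77.2 and 82.0 CPM with DRIL18, and 54.9 and 55.7 CPM in Mock. Bst2 rose with the mixture (0.29 ± 0.05) and with DRIL18 (0.53 ± 0.05, adjusted p = 3.15e-09), and its small fall with IL12 (-0.13 ± 0.05, adjusted p = 0.0437) did not pass without any 1 of the IL12 or Mock libraries (adjusted p from 0.0634 to 0.2). Ifitm3, which blocks fusion of virus in endosomes, had 61.6 and 61.6 CPM with the mixture, 124 and 119 CPM with IL12, 66.3 and 63.8 CPM with DRIL18, and 57.6 and 60.2 CPM in Mock. Its level with IL12 alone was 2.06-fold that of Mock (1.04 ± 0.05, adjusted p = 9.13e-18), and the mixture was lower than IL12 by 0.98 on the log2 scale.

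Ifi27l2a, a small membrane protein, stood at 30.0 and 25.2 CPM with the mixture, 42.0 and 39.5 CPM with IL12, 73.4 and 80.3 CPM with DRIL18, and 75.8 and 68.9 CPM in Mock. It fell by 1.39 with the mixture and by 0.83 with IL12, while the DRIL18 and Mock libraries overlapped. Lgals3bp, a secreted glycoprotein, had 129.8 and 138 CPM with the mixture, 101 and 94.4 CPM with IL12, 183 and 186 CPM with DRIL18, and 140.2 and 143 CPM in Mock. It fell with IL12 (-0.53 ± 0.05) and rose with DRIL18 (0.39 ± 0.04), and the mixture was 0.46 ± 0.05 above IL12.

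Stat2, the subunit that is particular to ISGF3, belongs to the list and is itself interferon-induced. It stood at 42.5 and 42.8 CPM with the mixture, 59.4 and 61.3 CPM with IL12, 88.4 and 89.1 CPM with DRIL18, and 81.2 and 79.8 CPM in Mock. The mixture was lower than Mock (-0.92 ± 0.05, adjusted p = 6e-17) and lower than IL12 (-0.50 ± 0.05, adjusted p = 3.78e-10), and IL12 was lower than Mock (-0.42 ± 0.05). Parp9 and Dtx3l form a ubiquitin ligase complex. Parp9 had 127 and 125 CPM with the mixture, 137 and 149 CPM with IL12, 151 and 149 CPM with DRIL18, and 110.0 and 111 CPM in Mock, so that it was higher in all 3 groups, but with the mixture it did not pass with the mark bis as a covariate (0.14, adjusted p = 0.0506). Dtx3l had 146 and 148 CPM with the mixture, 197 and 217 CPM with IL12, 257 and 249 CPM with DRIL18, and 196 and 203 CPM in Mock, so that it fell with the mixture (-0.44 ± 0.04) and rose with DRIL18 (0.34 ± 0.04). The 2 genes overlap on opposite strands, by 9.4% of the exonic bases of Parp9 and 8.0% of those of Dtx3l in an annotation of another build, and the sources used here do not give the strand setting of the counting. Parp14, an ADP-ribosyltransferase, had 132 and 134 CPM with the mixture, 131 and 140.1 CPM with IL12, 224 and 229.9 CPM with DRIL18, and 185 and 182 CPM in Mock.

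Sp100, a nuclear body protein that silences viral DNA, had 179 and 172 CPM with the mixture, 429 and 406 CPM with IL12, 387 and 375 CPM with DRIL18, and 446 and 433 CPM in Mock. Its fall with the mixture was -1.32 ± 0.04 (adjusted p = 1.8e-23), and it was the 1 gene of the list called lower with DRIL18 (-0.21 ± 0.04, adjusted p = 7.39e-05). Phf11b stood at 34.2 and 31.0 CPM with the mixture, 84.4 and 87.5 CPM with IL12, 65.9 and 67.7 CPM with DRIL18, and 56.6 and 57.4 CPM in Mock. It fell with the mixture (-0.81 ± 0.05) and rose with IL12 (0.59 ± 0.05) and DRIL18 (0.23 ± 0.05), with no overlap between groups. Reads of Phf11b may be shared with other members of its gene family. Ifi35 rose with DRIL18 (0.26 ± 0.06, adjusted p = 0.00273), but not without DRIL18 replicate 1 (0.22, adjusted p = 0.0606) or Mock replicate 2 (0.20, adjusted p = 0.0952), and passed in neither of the other 2 comparisons with Mock.

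Samd9l, a restriction factor that slows translation, had 114 and 108 CPM with the mixture, 179 and 211 CPM with IL12, 252 and 255 CPM with DRIL18, and 257 and 255 CPM in Mock. Xaf1, a pro-apoptotic protein, had 8.99 and 8.86 CPM with the mixture, 14.0 and 15.1 CPM with IL12, 34.5 and 37.6 CPM with DRIL18, and 31.2 and 30.4 CPM in Mock. Both genes fell with the mixture, by 1.20 for Samd9l and 1.79 for Xaf1 on the log2 scale, and less with IL12, by 0.40 and 1.08, and the mixture was below IL12 for both (adjusted p = 1.22e-14 and 5.57e-08). Ifi44, whose function is little defined, was the list's strongest rise. It had 0.613 and 0.593 CPM with the mixture, 4.93 and 3.99 CPM with IL12, 0.461 and 0.383 CPM with DRIL18, and 0.0566 and 0.0297 CPM in Mock, where only 3 counts were seen in all. The ratio to Mock was 13.9 with the mixture (95% counting interval 4.42 to 70.0), 102 with IL12 (34.7 to 500) and 9.72 with DRIL18 (3.01 to 49.9). IL12 was also above the mixture, by 2.88 on the log2 scale, and above DRIL18 by 3.39, both past the test.

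Whether the mixture equals the 2 single mRNAs combined was tested as an interaction on the log2 scale, that is mixture minus IL12 minus DRIL18 plus Mock. The interaction was below 0 at 22 of the 40 genes and above 0 at 1, where 31.6% of all tested genes were called, 17.1% below and 14.6% above. The median over the 40 genes was -0.60, beside -0.02 over all genes. Departures below 0 were not particular to this list. Of 33 GTPases and antigen presentation genes of the interferon gamma response, 25 were called below 0 and 0 above (median -0.73). Of 54 other interferon-stimulated genes tested, 41 were called below 0 and 4 above (median -0.39). Of the 8 T cell markers, 6 were called below 0 and 0 above. By role, 4 of 5 IFIT genes and 6 of 7 genes of the transcription and PARP group had a called interaction below 0, and none of the 5 oligoadenylate synthetases tested was called. Ifit1bl1 departed by -3.08 ± 0.13 (adjusted p = 2.48e-18), Ifit1 by -2.16 ± 0.31 (adjusted p = 1.31e-06), Phf11b by -1.63 ± 0.07 and Zbp1 by -1.49 ± 0.07. Ifih1 was the 1 gene above 0 (0.64 ± 0.15, adjusted p = 0.00105). For Oas3, the departure was 0.11 with a 95% interval of -0.04 to 0.25 (adjusted p = 0.291), and for Rsad2 it was -0.82 with an interval of -2.23 to 0.59 (adjusted p = 0.411). Rtp4 (0.08, interval -0.78 to 0.94), Ddx60 (0.01, -0.51 to 0.53) and Oas1a (0.08, -0.71 to 0.86) did not pass the interaction test either. The standard errors of Oasl1, Oasl2 and Oas2 were 0.77, 0.55 and 0.50. With errors and intervals this wide, a missed call does not show that the single effects add.

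**Figure D3:**
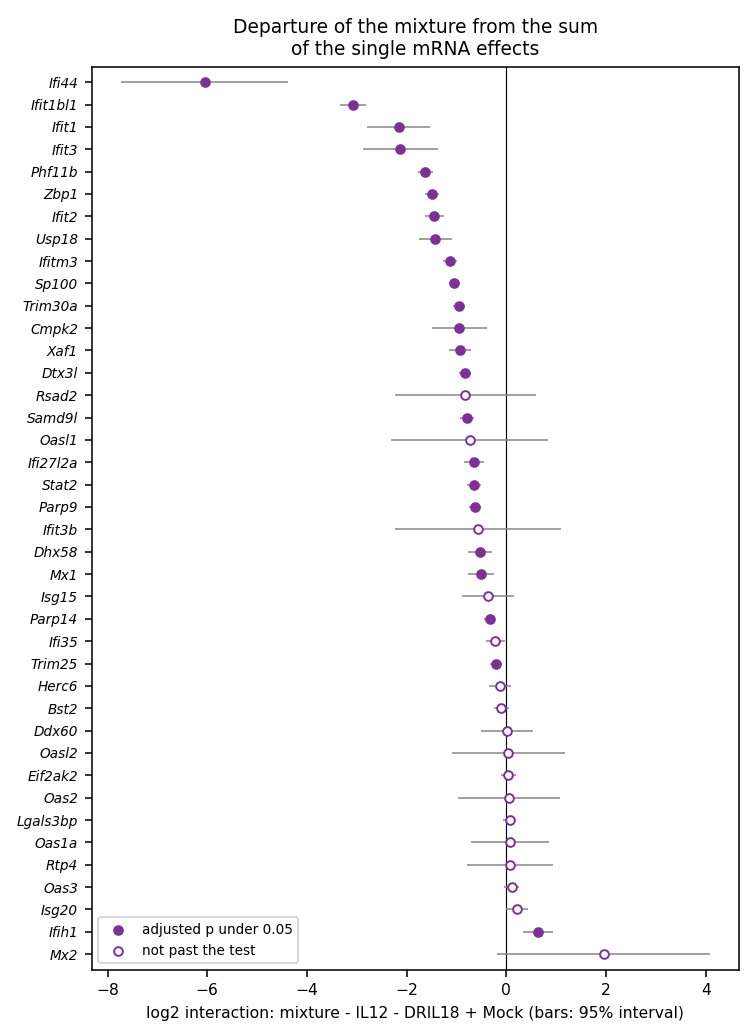
Interaction of the 2 mRNAs for each gene on the log2 scale, with 95% intervals and sorted from lowest to highest; 0 means that the mixture equals the sum of the single effects, and filled points passed the test. Ifi44, with 3 Mock counts in all, lies lowest at -6.05 and Ifit1bl1 next at -3.08, and Ifih1 at 0.64 is the 1 filled point above 0.

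The genes upstream of the list were measured in the same libraries. The 19 type I and III interferon genes listed summed to at most 0.119 CPM in any library, none passed the filter, and Ifnb1 had no count. Ifnar1, a chain of the type I receptor, stood at 91.2 and 90.5 CPM with the mixture, 136 and 134 CPM with IL12, 183 and 193 CPM with DRIL18, and 217 and 215 CPM in Mock. Ifnar2, the other chain, stood at 26.8 and 27.4 CPM with the mixture, 47.5 and 47.2 CPM with IL12, 81.1 and 83.3 CPM with DRIL18, and 105 and 104 CPM in Mock. Both chains fell in all 3 groups with no overlap, and Ifnar2 was 3.85-fold lower with the mixture (-1.95 ± 0.05, adjusted p = 7.61e-25).

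Irf9, the DNA-binding subunit of ISGF3, had 38.1 and 37.0 CPM with the mixture, 58.2 and 60.0 CPM with IL12, 96.9 and 94.5 CPM with DRIL18, and 93.4 and 97.6 CPM in Mock. Irf7, which amplifies type I interferon responses, had 4.90 and 4.83 CPM with the mixture, 8.07 and 10.2 CPM with IL12, 33.7 and 34.1 CPM with DRIL18, and 31.4 and 30.9 CPM in Mock. The 2 regulators fell with the mixture, by 1.35 and 2.68 on the log2 scale, and with IL12, by 0.69 and 1.77, and passed no test with DRIL18. Irf1, a transcription factor that interferon gamma induces, rose with DRIL18 (0.62 ± 0.04) and fell slightly with the mixture (-0.20 ± 0.04). Of the 7 interferon regulatory factors, 1 rose and 4 fell with the mixture, where 32% of all genes rose and 31.9% fell. With IL12, 2 rose and 2 fell, where 23% and 23.6% of all genes did, and with DRIL18, 4 rose and none fell, where 12.2% and 12.1% did.

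**Figure D4:**
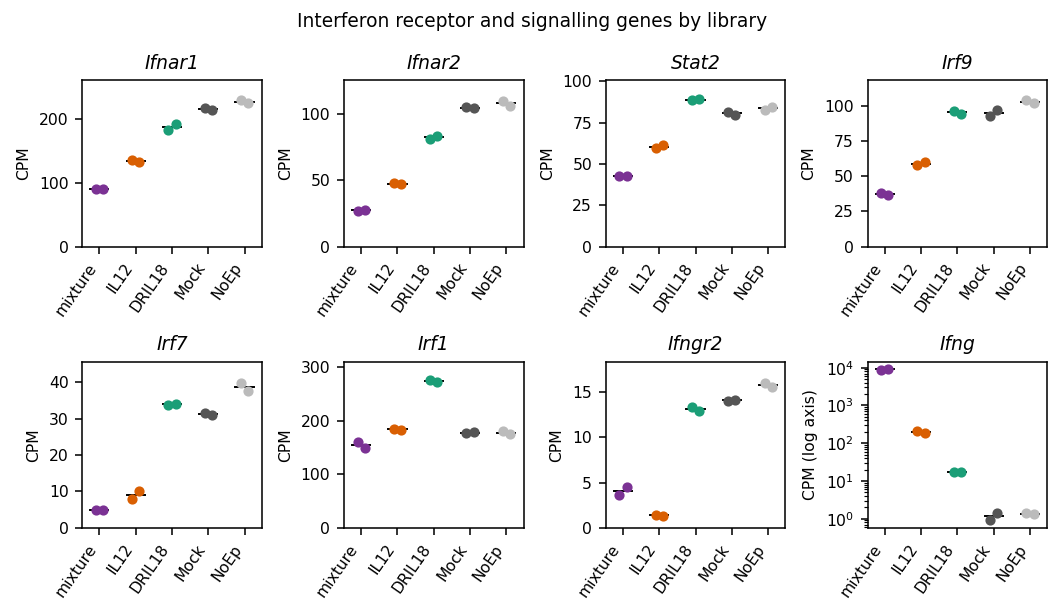
Level in CPM of receptor, regulator and interferon genes in each library (points) with the mean of each group (lines); the Ifng axis is logarithmic. Ifnar1, Ifnar2, Irf9 and Irf7 are lowest with the mixture, Irf1 is highest with DRIL18, and Ifng is highest with the mixture at 8878 and 9104 CPM.

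Interferon gamma mRNA was higher than in Mock with the mixture and with each single mRNA. Ifng had 8878 and 9104 CPM with the mixture, 209.7 and 189 CPM with IL12, 17.4 and 17.2 CPM with DRIL18, and 0.905 and 1.43 CPM in Mock. The receptor chain Ifngr2 had 3.68 and 4.53 CPM with the mixture, 1.44 and 1.32 CPM with IL12, 13.4 and 12.8 CPM with DRIL18, and 14.0 and 14.1 CPM in Mock. The groups of Ifng did not overlap, and Ifngr2 was 10.2-fold lower with IL12 (-3.35 ± 0.15) and 3.42-fold lower with the mixture (-1.77 ± 0.12), both past the test. A list of 33 GTPases and antigen presentation genes of the interferon gamma response, all tested, had 16 genes higher and 15 lower with the mixture, where 32% of all genes were higher and 31.9% lower. It had 15 higher and 6 lower with IL12, against 23% and 23.6% of all genes, and 31 higher and 0 lower with DRIL18, against 12.2% and 12.1%. Their median log2 fold changes were -0.01, 0.18 and 0.86. Cxcl10, a chemokine of that list, rose with the mixture by 6.07, with IL12 by 2.81 and with DRIL18 by 3.64 on the log2 scale.

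Between Mock and NoEp, the share of the list that was called lay near the share over all tested genes. Mock was lower than NoEp at 2 of the 40 genes and higher at none, where 6.98% of all genes were called, 3.34% higher and 3.64% lower, and the median log2 fold change was -0.07. Ifit1bl1 had 28.4 and 27.9 CPM in Mock, against 34.4 and 34.3 CPM in NoEp (-0.29 ± 0.07, adjusted p = 0.0115). Sp100 had 446 and 433 CPM in Mock, against 488 and 482 CPM in NoEp (-0.14 ± 0.04, adjusted p = 0.0148). Neither call passed without any 1 of the Mock or NoEp libraries (adjusted p from 0.0721 to 0.124 for Ifit1bl1 and from 0.0703 to 0.202 for Sp100). The mark bis, which stands on both NoEp columns and on neither Mock column, cannot be told apart from electroporation by these 2 groups alone, and no source used here explains the mark. Mx2 was at 0.198 and 0.0892 CPM in Mock and at 0.502 and 0.529 CPM in NoEp, and the difference did not pass (-1.81 ± 0.61, adjusted p = 0.0703).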

How the data were processed

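Total RNA was sequenced in 10 libraries after TruSeq Stranded mRNA preparation, per the labels' protocols. Per the submitters' processing notes, STAR 2.7.9, featureCounts, edgeR, limma and the build mm39 were used; no source used here gives the strand setting or the annotation. The authors deposited raw counts per gene for all libraries and a table of log2 values for 13225 genes. That table held 37 of the listed genes and equalled limma-voom on TMM-scaled counts to within 4.97e-14, and no result rests on it.

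The members and lists were chosen with earlier results of these data known. Identifiers were matched to symbols through GENCODE M21 and RefSeq names (52083 of 55359 matched). The counts were tested with edgeR 4.0.16 in R 4.3.3: TMM, filterByExpr, 5 group means and glmQLFTest, with Benjamini-Hochberg adjustment over 15777 genes. TMM factors were 0.955 to 1.03, the median biological coefficient of variation was 4.75%, and 5 residual degrees of freedom remained. CPM are counts scaled to library size after TMM. The 8 comparisons, including the interaction, share libraries. Errors are standard errors of the fit. Counting intervals cover counting error only, since reads carry no molecular identifiers. The procedure was tested on simulated data.

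Named genes follow a written rule: genes of each role, and those with the largest and smallest called changes. CPM of the genes of each role are given for every electroporated library, and for the NoEp libraries at some genes only. Alternatives were DESeq2 1.42.0, limma-voom 3.58.1, other size factors, no filter, only the groups compared, a replicate block, the mark bis as a covariate, and leaving out each library. Replicate numbers did not pair samples (correlations of deviations from -0.03 to 0.05). One item of the pathway is not reported here.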

Additional observations from a re-analysis of the deposited data

Results flagged for a closer look

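Genes are given here because the effect of one mRNA differed with the presence of the other, by a test of the interaction itself on the log2 scale (mixture minus IL12 minus DRIL18 plus Mock, edgeR's quasi-likelihood test, adjusted p under 0.05). The interaction was called at 23 of the 40 tested genes. Of these, 22 lay below 0, so that the mixture was lower than the single effects added together. Ifi44 departed by -6.05, a fitted value that rests on 3 Mock counts. The IFIT genes Ifit1bl1, Ifit1, Ifit3 and Ifit2 departed by -3.08, -2.16, -2.13 and -1.45. Phf11b departed by -1.63, Zbp1 by -1.49, Usp18 by -1.42, Ifitm3 by -1.12 and Sp100 by -1.04. Trim30a departed by -0.96, Cmpk2 by -0.94, Xaf1 by -0.93, Dtx3l by -0.84 and Samd9l by -0.79. Ifi27l2a departed by -0.65, Stat2 by -0.64, Parp9 by -0.62, Dhx58 by -0.52, Mx1 by -0.51, Parp14 by -0.33 and Trim25 by -0.21. Ifih1 lay above 0, at 0.64. The share called among all tested genes was 31.6%. Departures below 0 were not particular to the antiviral list. They were called at 25 of 33 GTPases and antigen presentation genes of the interferon gamma response, with 0 above. Of 54 other interferon-stimulated genes tested, 41 were called below 0 and 4 above. The interaction of Cmpk2 did not pass without IL12 replicate 1 (-0.60, adjusted p = 0.16) or mixture replicate 2 (-0.57, adjusted p = 0.142), nor that of Trim25 without IL12 replicate 2, Mock replicate 1 or mixture replicate 1 (-0.17 to -0.18, adjusted p from 0.0501 to 0.0788).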

How the results depend on the processing

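No called value changed sign under any alternative run. The number of the 40 genes called stayed within 1.5 times the reported one in all comparisons other than Mock against NoEp. With single libraries left out, it ranged over 30 to 32 for the mixture, 26 to 29 for IL12 and 16 to 26 for DRIL18, each against Mock, over 24 to 26 for the mixture against IL12, 33 to 34 for the mixture against DRIL18, 29 to 31 for IL12 against DRIL18, and 22 to 23 for the interaction. With DRIL18 against Mock, 2525 to 4125 of all genes were then called, and the lowest count came without Mock replicate 2. For Mock against NoEp, where 2 of the 40 genes and 1102 of all genes were called, 1 and 171 were called with the mark bis as a covariate, 6 of the 40 were called with only these groups in the fit, and 0 to 3 of the 40 and 242 to 1399 of all genes with single libraries left out. The cause was not tested. The mark also stands on both mixture columns, DRIL18 replicate 2 and IL12 replicate 2; as a covariate it left 29 genes called for the mixture against Mock. A replicate block gave 32, 28 and 25 called genes for the mixture, IL12 and DRIL18 against Mock and 2 for Mock against NoEp, and no count of calls moved by over 1.5 times under the block. With 2 libraries a group, genes under about 1 CPM (Mx2, Oasl1, Oasl2, Oas2, Ifit3b, Rsad2) have standard errors of up to 1.04 (Mx2, in the interaction), and a missed call there does not show that levels were alike.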

Other observations

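Other interferon-stimulated genes, outside the antiviral list, were counted as well. The counts here stand beside all tested genes, of which 32% were higher and 31.9% lower with the mixture than in Mock, 23% higher and 23.6% lower with IL12, and 12.2% higher and 12.1% lower with DRIL18. Of 56 listed, 54 were tested: 44 were lower and 3 higher with the mixture than in Mock (median log2 fold change -0.49), 29 lower and 14 higher with IL12 (median -0.21), and 6 lower and 23 higher with DRIL18 (median 0.10). Ifi206, of the family of DNA-binding HIN proteins, fell by 2.94 with the mixture, and Rnf213, a ubiquitin ligase, fell by 2.34 with the mixture and by 1.77 with IL12. Ifi204, also of the HIN family, rose by 3.16 with IL12. Of 13 tested genes of nucleic acid sensing, 5 rose and 6 fell with the mixture, 3 rose and 5 fell with IL12, and 2 rose and 1 fell with DRIL18, where the counts for DRIL18 and the rises with IL12 lay near the shares over all genes. Ddx58, which encodes the RNA sensor RIG-I, had 42.8 and 40.96 CPM with the mixture, 43.0 and 46.8 CPM with IL12, 109 and 114 CPM with DRIL18, and 111 and 105 CPM in Mock. Samhd1, which depletes nucleotides, had 375 and 357 CPM with the mixture, 1129 and 1155 CPM with IL12, 796 and 806 CPM with DRIL18, and 764 and 764 CPM in Mock.

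Among 7 negative regulators and partners of the pathway, 4 rose and 2 fell with the mixture, 3 rose and 3 fell with IL12, and 3 rose and 2 fell with DRIL18. Over all tested genes, 32% rose and 31.9% fell with the mixture, 23% and 23.6% with IL12, and 12.2% and 12.1% with DRIL18. The falls with the mixture lay near that share. Ube2l6, the enzyme that conjugates ISG15 together with Herc6, had 2.66 and 2.79 CPM with the mixture, 0.751 and 1.35 CPM with IL12, 11.7 and 10.8 CPM with DRIL18, and 6.08 and 5.08 CPM in Mock. Its log2 fold changes against Mock were -1.04 with the mixture, -2.40 with IL12 and 1.00 with DRIL18. Socs1, which blocks the kinases of interferon receptors, rose by 0.43, 0.66 and 0.32, and Socs3 rose by 0.82 and 1.10 with the mixture and IL12 and fell by 0.44 with DRIL18.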
